A study of Homo sapiens with 6 samples.

Results

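The transcripts of 9 transcription factors of the prostate lineage were followed in LNCaP cells exposed to CDKI-73: *FOXA1*, *HOXB13*, *GATA2*, *MEIS1*, *SPDEF*, *ELF3*, *GRHL2*, *SOX4* and *SOX9*. They were chosen by name, and all 9 were found among the 29744 gene symbols of the deposited expression table. All 9 also passed the filter on low values, a mean of at least 0.5 CPM (reads of the gene as a share of all counted reads, scaled to a constant total) over the 6 libraries, which left 13373 genes to test. LNCaP is an established human prostate cancer line of luminal character. CDKI-73 blocks the kinase CDK9, which releases paused RNA polymerase II into productive elongation. CDK9 is not its only target: the paper lists CDK7, CDK1 and CDK2 as well, from kinase assays. In treated LNCaP cells it also reports a loss of the RNA polymerase II phosphorylation made by CDK7. The comparison thus asked how the transcriptome of these cells differs with CDKI-73. Which of these kinases accounts for a change was not tested. LNCaP cells received CDKI-73 at 250 nM for 4 h (n = 3) or vehicle, DMSO, for 4 h (n = 3), both in serum-supplemented medium, and the paper calls the 3 libraries of each group biological replicates. The DMSO libraries also carry the compound's name in their titles, and every direction given here rests on their treatment label, which makes them vehicle. All libraries come from a single cell line and a single time point.

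FOXA1 is a pioneer factor: it binds its sites in closed chromatin and opens enhancers for other factors. GATA2 and HOXB13 act beside FOXA1 at many of the same enhancers, and MEIS1 is a homeobox cofactor that pairs with HOX proteins, including HOXB13. SPDEF, ELF3 and GRHL2 are epithelial differentiation factors of the ETS and Grainyhead families, while SOX4 and SOX9 are high-mobility-group factors associated with progenitor states, with prostate development and with prostate cancer growth. Super-enhancers often drive genes of this kind, and transcripts of many regulatory genes turn over quickly.

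PolyA+ RNA was sequenced, and the counted reads, inferred from the step between low CPM values, numbered 46.1 to 52.0 M per CDKI-73 library and 52.9 to 60.9 M per DMSO library. A single read thus equals 0.0164 to 0.0217 CPM. Luminal markers were present throughout: 15 luminal marker genes summed to 7950 to 8160 CPM with CDKI-73, against 9242 to 9546 CPM with DMSO, and *KLK3*, which encodes PSA, was at 2865 to 3336 CPM with CDKI-73 and 2480 to 2787 CPM with DMSO. Most defining markers of other cells were at or near 0, with *TP63*, *KRT5*, *CHGA*, *DES*, *PTPRC* and *PECAM1* at or below 0.04 CPM in every library, but *KRT14* (basal) was at 1.08 to 1.31 CPM with CDKI-73 and 0.51 to 1.08 CPM with DMSO, and *SYP* (neuroendocrine) at 2.37 to 2.76 and 2.24 to 2.84 CPM. By list, the 6 basal genes summed to 1.20 to 1.45 CPM with CDKI-73 and 0.60 to 1.23 CPM with DMSO, the 9 neuroendocrine genes to 9.64 to 12.3 and 8.63 to 10.3 CPM, mostly *DLL3*, and the 4 endothelial genes to 10.0 to 11.9 and 10.0 to 10.1 CPM, nearly all *VWF*. The 5 immune genes summed to 0.35 to 0.62 and 0.19 to 0.23 CPM. The stromal list of 8 genes summed to 17.0 to 19.2 CPM with CDKI-73 and 12.0 to 12.8 CPM with DMSO, nearly all of it *COL1A1* and *ACTA2*. The part of these other markers in the changes described here was not tested. CDKI-73 replicate 3 stood apart from replicates 1 and 2 for several of the lineage factors, and its values are given wherever they matter.

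All 9 factors were lower with CDKI-73 than with DMSO when called in limma (adjusted p up to 0.05), and none was higher. Their transcripts averaged between 6.44% (*SOX9*) and 85.0% (*SPDEF*) of the DMSO level. Of all tested genes, 48.2% were called lower by this rule and 24.2% higher, so a fall alone was common. For 6 factors the fall was at least 2-fold, a size that 22.3% of tested genes reached downwards and 1.11% upwards. That number was 5 with each of 3 other scalings, where *GRHL2* came to between −0.93 and −0.86, and 7, with *FOXA1* at −1.29, when *GAPDH*, *HPRT1* and *ACTB* were held level. *MEIS1* and *SOX9*, at 0.487 and 0.127 CPM with CDKI-73, met the 0.5 CPM filter only through DMSO. A fall was thus built into their entry. A filter at a mean of 2 CPM removed both and left 4 factors with a fall of at least 2-fold. In 8 of the 9 every CDKI-73 library lay below every DMSO library, as it did for 50% of tested genes, with the reverse in 25.9%. The median log2 fold change of the 9 was −1.40, beside −0.18 over all tested genes. Summed over the 9 genes, CPM ran at 639 to 770 with CDKI-73 and at 1344 to 1358 with DMSO. All these CPM are shares of the counted reads, of which the mitochondrial rRNA *RNR2* took 6.96% to 7.44% with CDKI-73 and 4.46% to 4.72% with DMSO, and its part in the changes was not tested. In bulk libraries, less RNA per cell cannot be told apart from fewer contributing cells.

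**Figure D1:**
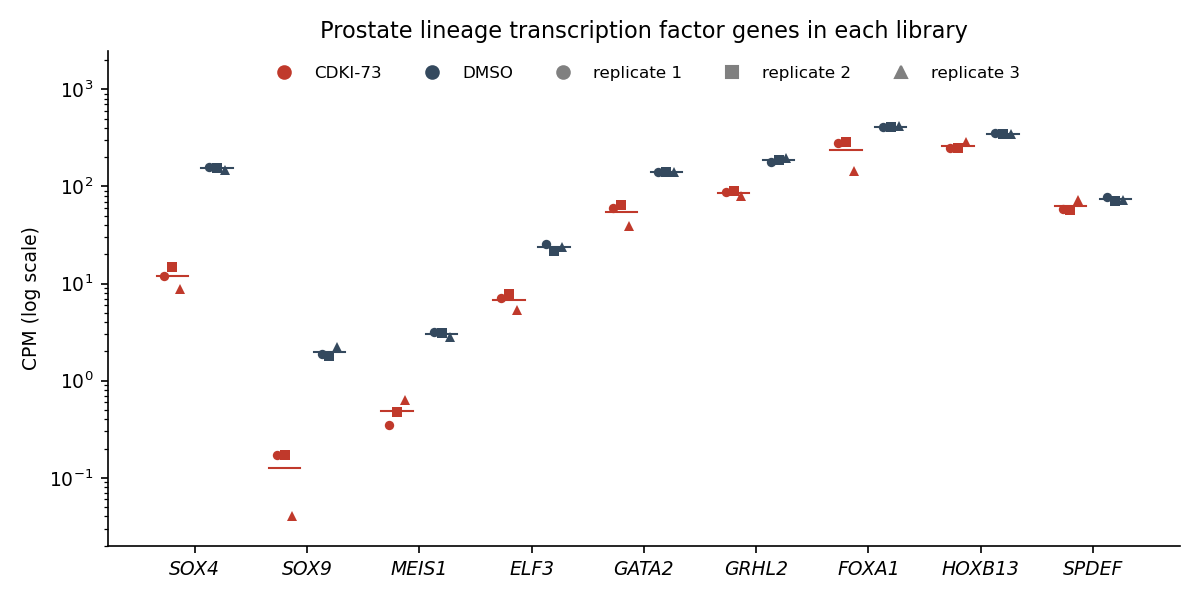
CPM of the 9 lineage factors in each library (log axis), CDKI-73 in red to the left of DMSO in dark blue, with symbols for replicates 1 to 3, a short bar at each group's mean, and genes ordered from the largest log2 fall. The groups are separate for every gene but *SPDEF*, and CDKI-73 replicate 3 is visibly low for *FOXA1* (143 CPM), *GATA2* and *SOX9*.

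*FOXA1* (chromosome 14, 37589552 to 37596059, minus strand, hg38) had 279, 284 and 143 CPM in the 3 CDKI-73 libraries, against 411, 413 and 418 CPM in the 3 DMSO libraries. The DMSO libraries were nearly equal, CDKI-73 replicate 3 stood far below the other treated libraries, and the groups did not overlap. The mean was 235 ± 80.1 CPM with CDKI-73 and 414 ± 3.51 CPM with DMSO (SD, n = 3 each). In limma this was a log2 fold change of −0.88 (SE 0.23, 95% interval −1.42 to −0.34, adjusted p = 0.0091). Without CDKI-73 replicate 3 the fold change was −0.56 (SE 0.038, adjusted p = 5.5e-08 in limma), so that library decides much of its size. *FOXA1* lay below most genes of its own abundance: of the 1103 tested genes within 2-fold of its mean CPM, 3.99% had a lower log2 fold change. Over all tested genes this share was 24.8%.

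*GATA2* (chromosome 3, 128479427 to 128493201, minus strand), which encodes a GATA-family zinc finger factor, had 60.6, 64.6 and 39.4 CPM with CDKI-73, against 143, 141 and 142 CPM with DMSO. Every treated library held less than any vehicle library by a wide margin, and replicate 3 was again the lowest. The group means of 54.9 ± 13.5 and 142 ± 0.663 CPM (SD, n = 3 each) left 38.7% of the DMSO level. The log2 fold change in limma was −1.40 (SE 0.16, adjusted p = 8.3e-05), and it was −1.18 without CDKI-73 replicate 3.

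*HOXB13* (chromosome 17, 48724763 to 48728750, minus strand), the posterior homeobox gene that marks the prostate epithelium from development on, had 252, 252 and 289 CPM with CDKI-73, against 357, 346 and 350 CPM with DMSO. Here replicate 3 was the highest treated library, not the lowest, and the groups still did not overlap. The means were 264 ± 21.6 CPM with CDKI-73 and 351 ± 5.85 CPM with DMSO (SD, n = 3 each). Its log2 fold change of −0.41 (SE 0.060, 95% interval −0.55 to −0.27, adjusted p = 0.00035 in limma) left 75.3% of the DMSO level. With upper-quartile scaling it was −0.14 and did not pass the test (adjusted p = 0.078 in limma). *HOXB13* lay nearer to the typical gene than *FOXA1* did, with 39.3% of tested genes below its fold change, against 24.8% for *FOXA1*. Of the 1171 genes of like abundance to *HOXB13*, only 12.0% were below it.

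*MEIS1* (chromosome 2, 66433452 to 66573869, plus strand), the gene of the HOX cofactor, was a low transcript in both groups, with 0.35, 0.48 and 0.63 CPM in CDKI-73 libraries, against 3.17, 3.07 and 2.84 CPM in DMSO libraries. By the inferred depth these are about 18, 25 and 29 reads with CDKI-73 and 193, 167 and 150 reads with DMSO. No treated library came near a vehicle library, and replicate 3 was the highest of the 3 treated ones. CDKI-73 left 16.1% of the DMSO mean, at a log2 fold change of −2.44 (SE 0.18, adjusted p = 5.3e-06 in limma). Adding 1 CPM in place of 0.1 before taking logs brought the value to −1.44, and the call held (adjusted p = 9.3e-07 in limma).

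*GRHL2* (chromosome 8, 101492439 to 101669726, plus strand) encodes the Grainyhead factor that keeps epithelial junction and adhesion genes active. It had 88.0, 89.8 and 79.3 CPM with CDKI-73, against 179, 189 and 195 CPM with DMSO. Both groups were tight and far apart, and replicate 3 differed little from the other treated libraries. The mean of 85.7 ± 5.61 CPM with CDKI-73 was 45.7% of the 188 ± 7.93 CPM with DMSO (SD, n = 3 each), a log2 fold change of −1.13 (SE 0.060, adjusted p = 6.5e-07 in limma).

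*ELF3* (chromosome 1, 202007945 to 202017183, plus strand), an epithelium-specific ETS factor gene, had 7.14, 7.73 and 5.32 CPM with CDKI-73, against 25.4, 21.6 and 23.7 CPM with DMSO. All treated libraries lay well under the vehicle libraries, with replicate 3 the lowest. The log2 fold change was −1.81 (SE 0.14, adjusted p = 5.5e-06 in limma), with 28.5% of the DMSO level left.

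*SPDEF* (chromosome 6, 34537802 to 34556333, minus strand), the prostate-derived ETS factor gene, changed least. It had 58.7, 56.9 and 73.1 CPM with CDKI-73, against 78.4, 70.8 and 72.7 CPM with DMSO. Replicates 1 and 2 lay below all vehicle libraries, but replicate 3 lay inside the DMSO range, so *SPDEF* was the only factor whose groups overlapped. The log2 fold change was −0.24 (SE 0.095, 95% interval −0.46 to −0.023, adjusted p = 0.047 in limma), close to the median of all tested genes. This call was fragile: scaling by trimmed-mean (TMM) factors gave −0.02 (adjusted p = 0.88 in limma), and it was also lost when any 1 library other than CDKI-73 replicate 3 was left out, with adjusted p between 0.068 and 0.15 in limma. Leaving out CDKI-73 replicate 3 gave −0.35 (adjusted p = 5.8e-05 in limma).

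*SOX4* (chromosome 6, 21593751 to 21598619, plus strand), an intronless gene of the SOX family, had the lowest log2 fold change on the log2(CPM + 0.1) scale, although *SOX9* was left with a smaller share of its DMSO level. *SOX4* had 11.9, 14.9 and 8.72 CPM with CDKI-73, against 159, 156 and 148 CPM with DMSO. Even the highest treated library, replicate 2, lay far below the lowest vehicle library. The means were 11.8 ± 3.08 CPM with CDKI-73 and 155 ± 5.72 CPM with DMSO (SD, n = 3 each), which left 7.65% of the DMSO level. The log2 fold change was −3.73 (SE 0.16, adjusted p = 2.5e-07 in limma), and only 0.83% of all tested genes and 0.084% of the 3568 genes of like abundance had a lower one.

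*SOX9* (chromosome 17, 72121020 to 72126416, plus strand), the related factor gene that is active in prostate budding and in basal-like progenitors, was the lowest of the 9. It had 0.17, 0.17 and 0.04 CPM with CDKI-73, against 1.89, 1.78 and 2.23 CPM with DMSO. By the inferred depth, these are about 9, 9 and 2 reads with CDKI-73 and 115, 97 and 118 reads with DMSO. Every vehicle library held far more than any treated one. The log2 fold change was −3.25 (SE 0.27, adjusted p = 1.0e-05 in limma), and at so low a level it depends on the constant added before taking logs: it was −4.07 with 0.01 CPM and −1.40 with 1 CPM, and passed the test with both. With 0.01 CPM added it lay below *SOX4* (−3.74), and in CPM 6.44% of its DMSO mean was left.

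**Figure D2:**
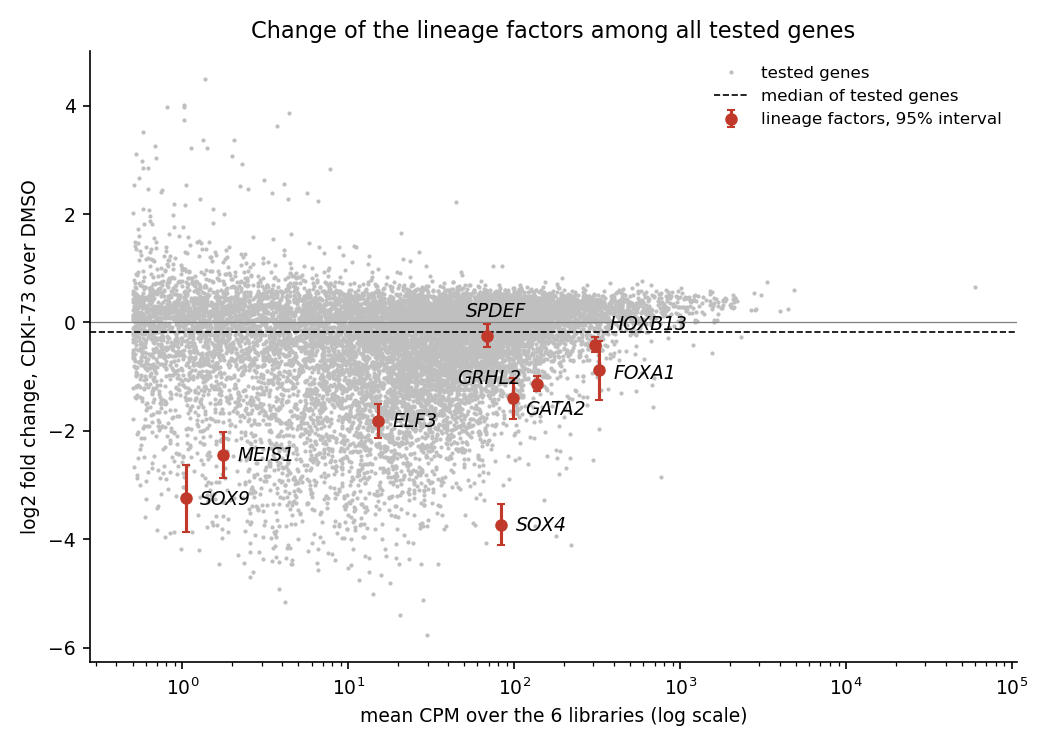
Log2 fold change of CDKI-73 over DMSO against mean CPM over the 6 libraries (log axis) for the 13373 tested genes in grey, with the 9 lineage factors in red and bars for the 95% interval in limma. The dashed line is the median of tested genes at −0.18: all 9 lie below it, *SPDEF* at −0.24 the closest and *SOX4* at −3.73 the furthest.

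The promoters of *SOX4* and *SPDEF* are shown because these genes had the lowest and the highest fold change of the 9 on the log2(CPM + 0.1) scale, and both lie on chromosome 6. These are the 250 bases before the RefSeq start site (GRCh38.p14), read 5′ to 3′ along each gene, with the letters CCAAT, or ATTGG where the motif is on the other strand, in capitals.
SOX4, chr6:21593501-21593750, plus strand: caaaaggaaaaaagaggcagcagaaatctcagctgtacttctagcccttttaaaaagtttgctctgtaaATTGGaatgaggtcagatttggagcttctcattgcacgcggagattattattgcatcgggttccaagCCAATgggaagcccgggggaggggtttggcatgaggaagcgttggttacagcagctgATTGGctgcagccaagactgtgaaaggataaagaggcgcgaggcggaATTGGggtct
SPDEF, chr6:34556330-34556579, minus strand: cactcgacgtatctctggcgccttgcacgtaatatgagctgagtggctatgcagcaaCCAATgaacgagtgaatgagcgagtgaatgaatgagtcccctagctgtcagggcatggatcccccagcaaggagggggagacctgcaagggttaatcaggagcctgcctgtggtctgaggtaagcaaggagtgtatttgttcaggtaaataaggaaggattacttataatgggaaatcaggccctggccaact
The *SOX4* window held 4 CCAAT boxes, starting at positions −181, −114, −57 and −10 from the start site, and 48.8% G and C. The *SPDEF* window held 1, at −193, and 50.8% G and C. A CCAAT box on either strand occurs in 32.0% of the 35116 RefSeq promoter windows of this length, and at least 4 of them occur in 0.874%. Neither window held TATAAA (in 10.7% of windows, either strand), GGGCGG (42.6%), the forkhead letters TGTTTAC (2.98%) or the GATA letters AGATAA (9.17%). Of the 6 lineage factors with an entry, *ELF3* held a TATAAA at −34 and a CCAAT at −73, *FOXA1* held GGGCGG at −164 and −136, *MEIS1* held 1 CCAAT, and the 2 *GATA2* promoters held a CCAAT and a GGGCGG. The windows of *ELF3*, *FOXA1* and *MEIS1*, and the *GATA2* window with the CCAAT, lie inside the GENCODE gene spans given above. Their RefSeq start sites are thus downstream of the GENCODE gene start. These are matches of letters and not measured binding sites.

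The order of the factors by level changed with CDKI-73. Per kilobase of the GENCODE canonical transcript, the level with CDKI-73 was highest for *HOXB13* (mean 86.9 CPM per kb), then *FOXA1* (67.1) and *SPDEF* (32.9), and these did not overlap between neighbours. *GRHL2* (16.4 CPM per kb) and *GATA2* (16.2) overlapped in their libraries, as did *SOX4* (2.43) and *ELF3* (2.17), and *MEIS1* (0.107) and *SOX9* (0.0322) followed. With DMSO, *FOXA1* (118 CPM per kb) and *HOXB13* (115) overlapped at the top. *GATA2* came next (41.9), before *SPDEF* (38.7) and *GRHL2* (35.9), which overlapped. *SOX4* stood at 31.8 CPM per kb with DMSO, below these without overlap, and *ELF3* (7.60), *MEIS1* (0.663) and *SOX9* (0.50) were at the bottom. Per kilobase, *HOXB13* thus headed the list in treated cells, where its lowest library (82.8 CPM per kb) narrowly exceeded the highest of *FOXA1* (80.9), and *SOX4* stood close to *ELF3* there. The rank of *HOXB13* rests on the annotated lengths. In CPM, *FOXA1* lay above *HOXB13* in CDKI-73 replicates 1 and 2 (279 and 284 against 252 and 252). Only in replicate 3 did it lie below (143 against 289). Which transcripts these cells use was not tested.

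CDKI-73 replicate 3 differed from replicates 1 and 2 in both directions among the 9 genes. It was the lowest treated library for 6 of them and the highest for *HOXB13*, *SPDEF* and *MEIS1*. On the log2 scale, replicate 3 minus the mean of replicates 1 and 2 was −0.98 for *FOXA1*, a difference that only 1.23% of tested genes exceeded downwards. It was −0.95 for *SOX9*, −0.66 for *GATA2*, −0.60 for *SOX4* and −0.47 for *ELF3*. At the other end it was 0.51 for *MEIS1*, 0.34 for *SPDEF* and 0.20 for *HOXB13*. For *GRHL2* it was −0.16. The 5th and 95th percentiles of tested genes were −0.52 and 0.36, so *ELF3*, *SPDEF*, *HOXB13* and *GRHL2* lay within that range and the others outside it. *FOXA1* transcripts were thus at 68.0% of the DMSO mean in replicates 1 and 2 and at 34.5% in replicate 3, while *SPDEF* was at 78.1% and 98.7%. Without replicate 3, all 9 factors were again called lower and 0 higher in limma (49.5% and 25.6% of tested genes). Why this library differs was not tested.

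**Figure D3:**
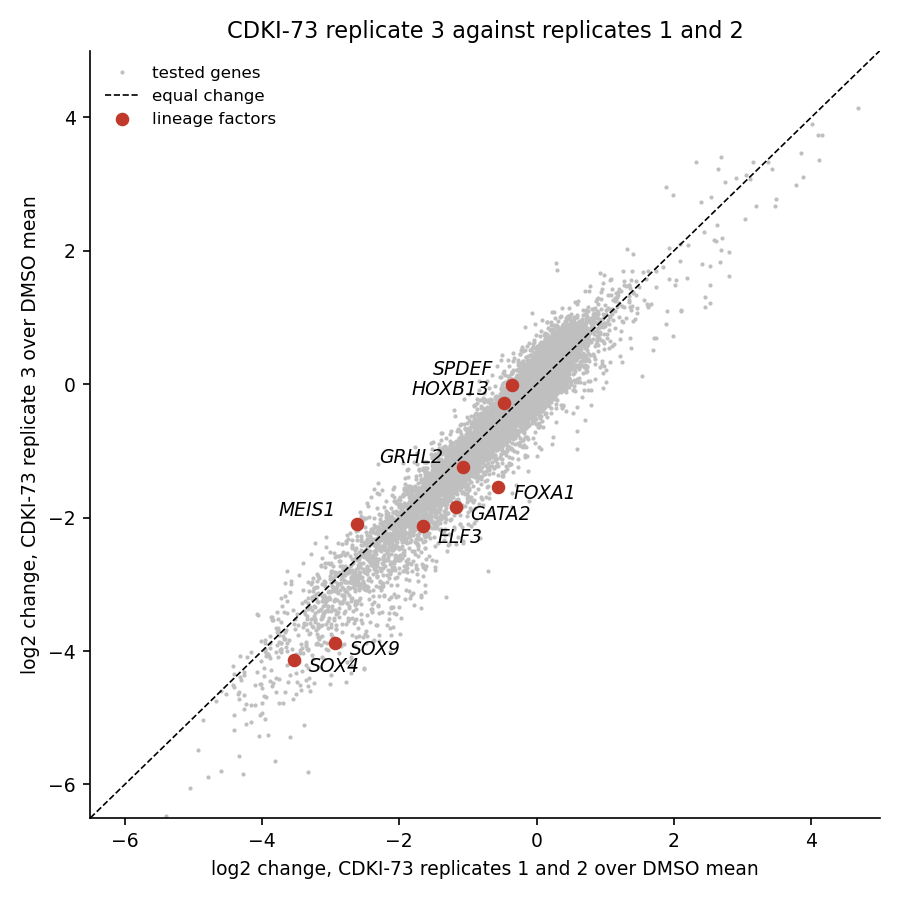
Log2 change over the DMSO mean in CDKI-73 replicate 3 (vertical axis) against the mean of CDKI-73 replicates 1 and 2 (horizontal axis), for the 13373 tested genes in grey and the 9 lineage factors in red, with a dashed line of equal change. *FOXA1*, *SOX9*, *GATA2*, *SOX4* and *ELF3* lie below the line, where replicate 3 had the larger fall, *MEIS1* lies 0.51 above what replicates 1 and 2 give, and *SPDEF* and *HOXB13* are slightly above it.

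Ratios within a library do not depend on how libraries are scaled, so the other 8 factors were also set against *FOXA1*. *SOX4* transcripts amounted to 4.26%, 5.24% and 6.10% of *FOXA1* CPM with CDKI-73, against 38.8%, 37.8% and 35.5% with DMSO. *GATA2* amounted to 21.7%, 22.8% and 27.6% with CDKI-73, against 34.7%, 34.2% and 33.9% with DMSO. *SOX4* and *GATA2* thus lost ground to *FOXA1* in every treated library, as did *ELF3*, *MEIS1* and *SOX9*. *HOXB13* went the other way, at 90.1%, 88.6% and 202% of *FOXA1* with CDKI-73, against 87.0%, 83.6% and 83.7% with DMSO. *SPDEF* likewise stood at 21.0%, 20.0% and 51.1% with CDKI-73, against 19.1%, 17.1% and 17.4% with DMSO. Both lay above all DMSO libraries in every treated library, by little in replicates 1 and 2 and by much in replicate 3, where *FOXA1* was lowest. *GRHL2* overlapped, with 31.5%, 31.6% and 55.4% of *FOXA1* with CDKI-73, against 43.6%, 45.7% and 46.6% with DMSO.

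Of these 8 ratios, 5 were thus lower without overlap, as for 13.5% of tested genes, and 2 higher, as for 61.4%. The exact two-sided permutation test of 3 libraries against 3 gave p = 0.1 for each of these 7, the smallest it can give, and 0.4 for *GRHL2* (0.114 and 0.4 after adjustment over the 8). In the limma fit of all genes relative to *FOXA1*, 4 of the 8 were lower and 0 higher, beside 11.6% and 45.6% of tested genes. These 4 were *SOX4* (log2 difference −2.85, adjusted p = 4.7e-14), *SOX9* (−2.36, adjusted p = 1.0e-07), *MEIS1* (−1.56, adjusted p = 0.00045) and *ELF3* (−0.93, adjusted p = 0.018). The *ELF3* call was lost when any 1 library other than CDKI-73 replicate 3 was left out (adjusted p = 0.055 to 0.13 in limma). Every gene in that fit carries the spread of *FOXA1* itself, so the genes are not independent there and these p-values are less firm than the per-library ratios. Without CDKI-73 replicate 3 that fit called 6 lower, *GATA2* (−0.62) and *GRHL2* (−0.52) in addition, and *SPDEF* higher (0.20, adjusted p = 0.0046 in limma), beside 28.5% and 59% of tested genes.

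The families of the 9 factors were also read from lists of their relatives. Of the SOX family, 4 further genes were tested and all 4 were lower by at least 2-fold, with a median log2 fold change of −1.80, beside −0.18 over all tested genes. Of all tested genes, 22.3% fell that far. The neural progenitor gene *SOX11* had 0.260 ± 0.09 CPM with CDKI-73 and 2.37 ± 0.20 CPM with DMSO (log2 fold change −2.81, adjusted p = 3.9e-06 in limma), and *SOX12* and *SOX13* had −1.87 and −1.74. In the TALE homeobox family, to which *MEIS1* belongs, 11 of 12 others were lower and 0 higher, 8 of them by at least 2-fold (median −1.66). Among all tested genes these shares were 48.2%, 24.2% and 22.3%. The Iroquois genes led that family: *IRX3* averaged 0.31 CPM with CDKI-73 and 8.10 CPM with DMSO (−4.35, adjusted p = 1.4e-07 in limma), with *IRX2* at −3.72 and *IRX5* at −3.32. These Iroquois genes and *SOX11* met the 0.5 CPM filter only through DMSO, so a fall was built into their entry. With a filter at a mean of 2 CPM, 3 SOX and 7 TALE genes were lower by at least 2-fold. *IRX3* and *IRX2* met that filter too only through DMSO. *GATA6*, an endodermal GATA factor gene and the only tested relative of *GATA2*, averaged 0.123 CPM with CDKI-73 and 5.20 CPM with DMSO (−4.60, adjusted p = 1.5e-07 in limma). It likewise met the 0.5 CPM filter only through DMSO, so a fall was built into its entry.

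In the ETS family 15 of 16 others were lower and 0 higher, beside 48.2% and 24.2% of all tested genes, with a median of −1.10. *ETS2* (−2.98), *ELF2* (−2.70) and *ELF1* (−2.08), all called in limma, had lower fold changes than *ELF3* (−1.81) and *SPDEF* (−0.24), a difference that was not tested. Of the Grainyhead and CP2 genes, 3 of 3 were lower, as were 48.2% of tested genes, and 2 were with a filter at a mean of 2 CPM. *GRHL1*, the paralog of *GRHL2*, had 6.01 ± 0.10 CPM with CDKI-73 and 15.1 ± 0.67 CPM with DMSO (SD, n = 3 each, log2 fold change −1.31, adjusted p = 5.5e-07 in limma). *UBP1*, a CP2 factor gene, had −1.06. In the HOX family 10 of 13 were lower and 0 higher, beside 48.2% and 24.2% of tested genes (median −0.62), led by *HOXC13* (−2.89), *HOXA5* (−1.88) and *HOXC9* (−1.21). Some HOX genes called lower met the 0.5 CPM filter only through DMSO. A filter at a mean of 2 CPM removed them and left 5 lower, 0 higher and 2 that did not pass the test. In the FOX family 11 of 17 were lower, 3 higher and 3 did not pass, beside 48.2% lower and 24.2% higher among all tested genes (median −0.83). With a filter at a mean of 2 CPM, 11 of the FOX family were lower, 2 higher and 2 did not pass. Its lowest fold changes were in FOXO genes, which encode factors restrained by AKT signaling: *FOXO1* had 1.27 CPM with CDKI-73 and 10.0 CPM with DMSO (−2.89, adjusted p = 1.2e-07 in limma), and *FOXO3* had 24.0 and 113 CPM (−2.24). *FOXO4*, of the same subgroup, was higher instead, at 11.2 CPM with CDKI-73 and 9.26 CPM with DMSO (0.27, adjusted p = 0.0053 in limma), with a sign that turned when *GAPDH*, *HPRT1* and *ACTB* were held level (−0.14). The value of −3.05 for *FOXO3B*, a near copy of *FOXO3*, is uncertain because reads of the pair can be exchanged.

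**Figure D4:**
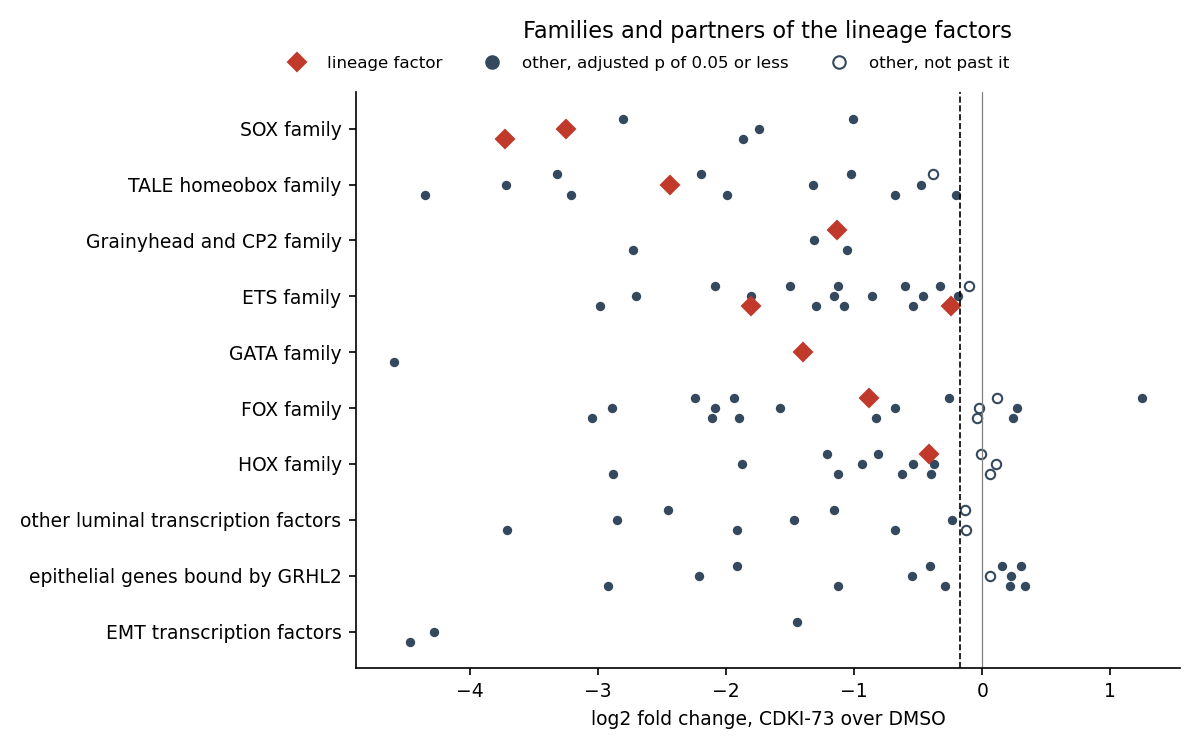
Log2 fold change of CDKI-73 over DMSO for the tested genes of each list, 1 point a gene: red diamonds are the lineage factors, filled circles other genes called in limma, open circles the rest (EMT, epithelial-mesenchymal transition), and the dashed line the median of tested genes (−0.18). The SOX and TALE families lie wholly below 0, the FOX family reaches both sides, and the epithelial genes bound by GRHL2 divide, with 7 lower and 5 higher.

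Among 10 other luminal transcription factor genes 8 were lower and 0 higher, beside 48.2% and 24.2% of tested genes (median −1.31). *KLF5*, a basal and luminal progenitor factor gene, averaged 1.17 CPM with CDKI-73 and 16.3 CPM with DMSO (−3.71, adjusted p = 2.6e-07 in limma), and *XBP1*, the secretory-pathway factor gene, had −2.45. Of 13 epithelial genes known as GRHL2 targets, 7 were lower, 5 higher and 1 did not pass, with a median of −0.29, where 48.2% of all tested genes were lower and 24.2% higher. The falls included the transcription factor genes *OVOL1* (−2.93) and *OVOL2* (−1.91) and the tight-junction gene *CLDN4*, at 22.5 ± 0.62 CPM with CDKI-73 and 105 ± 13.3 CPM with DMSO (SD, n = 3 each; log2 fold change −2.21, adjusted p = 1.3e-07 in limma). The 5 higher genes were the adhesion and junction genes *CDH1* (0.31), *CLDN7* (0.33) and *EPCAM* (0.22), the protease inhibitor gene *SPINT1* (0.22) and *RAB25* (0.16), and all 5 were below 0 when *GAPDH*, *HPRT1* and *ACTB* were held level. The split depended on scaling, with 6 lower and 6 higher under TMM factors (38.6% and 40.1% of tested genes) and 11 lower and 0 higher when *GAPDH*, *HPRT1* and *ACTB* were held level. All 3 tested repressors of epithelial genes were lower as well, as were 48.2% of tested genes. *SNAI2* averaged 0.06 CPM with CDKI-73 and 3.26 CPM with DMSO (−4.46, adjusted p = 1.5e-06 in limma), and *TWIST1* averaged 0.69 CPM and 15.2 CPM (−4.28, adjusted p = 2.0e-08 in limma). The third was *SNAI1*, at 0.377 and 1.19 CPM. *SNAI2* and *SNAI1* met the 0.5 CPM filter only through DMSO, so a fall was built into their entry.

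The genes most like each factor over the 6 libraries were found by Euclidean distance between log2 values centred on the DMSO mean, among 10211 genes with a mean of at least 5 CPM. For *FOXA1* these were *TICAM1* (distance 0.038), a Toll-like receptor adaptor gene, and *ATF3* (0.089), a stress-responsive factor gene, and for *GRHL2* they were *PTPN21* (0.034) and *ESRP2* (0.043), an epithelial splicing regulator gene. *ESRP2* averaged 45.3 CPM with CDKI-73 and 98.6 CPM with DMSO, and is itself among the GRHL2 targets listed. *SOX4* was nearest to *ZNF606* (0.17) and to *KLF5* (0.20), *ELF3* to the growth-arrest gene *GADD45A* (0.082), and *GATA2* to the p53-inducible gene *TP53INP1* (0.12). *HOXB13* was nearest to *MRPL2* (0.035), *SPDEF* to *GATSL3* (0.050) and *MEIS1* to *SEMA4B* (0.15), while *CHAMP1* (0.27) was among those nearest to *SOX9*. No factor was among the 2 nearest genes of another.

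Scaling moved all 9 values together. CPM are shares of all counted reads, and the qRT-PCR reference gene *GAPDH* averaged 3329 ± 257 CPM with CDKI-73 and 2275 ± 49.9 CPM with DMSO (SD, n = 3 each). The median log2 fold change of tested genes shifted by 0.22 with TMM factors, by 0.20 with the median of gene ratios, by 0.27 with the upper quartile and by −0.40 with *GAPDH*, *HPRT1* and *ACTB* held level. The factors called lower then numbered 8, 8, 7 and 9 in that order, beside 38.6%, 39.5%, 36.7% and 73.9% of tested genes. None was called higher, beside 40.1%, 38.3%, 43.1% and 2.95% of tested genes. *SOX4*, *SOX9*, *MEIS1*, *ELF3*, *GATA2*, *GRHL2* and *FOXA1* were called lower under each of these 4 scalings. Among the relatives the split moved most in the HOX family, with 8 of 13 lower and 1 higher under TMM factors and 7 lower and 2 higher with the upper quartile. The SOX, TALE, GATA and Grainyhead lists had 0 higher under TMM factors, the upper quartile and the reference genes.

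**Figure D5:**
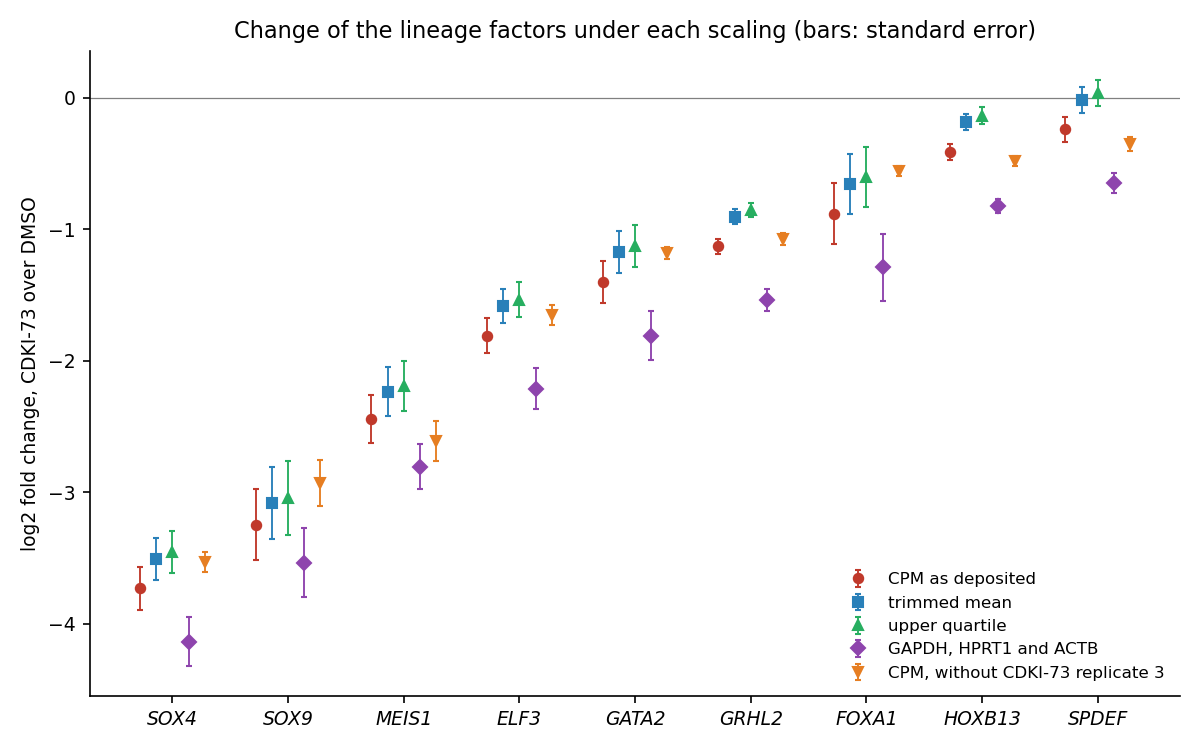
Log2 fold change of CDKI-73 over DMSO for each lineage factor, with bars for the standard error in limma, for CPM as deposited, after scaling by trimmed-mean factors, by the upper quartile or to *GAPDH*, *HPRT1* and *ACTB*, and without CDKI-73 replicate 3. Only *SPDEF* reaches 0, at 0.03 with upper-quartile scaling.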

How the data were processed

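PolyA+ RNA of LNCaP cells was sequenced as stranded, single-end libraries of 75 bp. Per the paper and the submitters' processing notes, the authors checked reads with FastQC, mapped them to hg38 with STAR, counted them per gene, and tested counts normalized by trimmed means in edgeR (3.3, under R 3.2.3). Not given in the sources used here is which annotation and strand column they counted. In the deposited table each value is a CPM of 1 gene symbol, rounded to 0.01, with no trimmed-mean factor in them, and column names match the sample labels.

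CPM are not counts. Genes with a mean of at least 0.5 CPM were therefore tested in limma 3.58.1 (R 4.3.3) on log2(CPM + 0.1), using lmFit and eBayes with trend, CDKI-73 against DMSO with 3 libraries each and no block, with Benjamini-Hochberg adjustment over all 13373 tested genes. A gene was called at an adjusted p of 0.05 or less. Fold changes are on this log2 scale, which understates the change of low genes. The test was checked on simulated data. Single reads could not be recovered from the rounded CPM, so no count test was run, and read numbers are approximate. Where separate cultures are not documented further, p-values measure the spread between these libraries.

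The 9 genes and all lists were chosen with earlier results of these data known. Besides the 9, the text names up to 3 other genes per list with the largest change past the test and a mean of at least 1 CPM, defining markers, the 2 genes nearest to each factor, and *GAPDH*, *HPRT1* and *ACTB*. *ACTA2*, *DLL3*, *VWF*, *RNR2*, *SNAI1*, *FOXO4* and the higher GRHL2 targets were named after their values were seen. Some genes under this rule or in the lists are not named or reported singly. Coordinates, exons and lengths come from GENCODE release 44 (hg38), and promoters from RefSeq. Settings tried were other pseudocounts, filters, scalings and limma options, the replicate number as a block, each library left out, and, chosen after seeing the data, exact permutation of the ratios to *FOXA1*. Tables used pandas 2.3.3, scipy 1.17.1 and matplotlib 3.10.9 in Python 3.11.15. Sequenced reads and ChIP-seq were not analysed here.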

Additional observations from a re-analysis of the deposited data

How the results depend on the processing

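Over 17 other settings the number of factors called lower ran from 7 to 9, with 0 higher, and the tested genes called from 8710 to 10700 (9683 as reported). *FOXA1*, *GATA2*, *GRHL2*, *ELF3* and *SOX4* were called lower under all 17, and *MEIS1* and *SOX9* under the 16 that test them (a filter at 2 CPM removes both). *HOXB13* lost its call with the upper quartile only. *SPDEF* lost its call in 10 and changed sign in 1, the upper quartile, at 0.033 (adjusted p = 0.76 in limma). The factors lower relative to *FOXA1*, 4 as reported, numbered 2 with a filter at 2 CPM, where *MEIS1* and *SOX9* are not tested, and 2 with a pseudocount of 1 CPM, which shrinks both. Leaving out each library in turn gave 3 to 6 lower and 0 to 1 higher, the 1 being *SPDEF* without CDKI-73 replicate 3. Same-numbered CDKI-73 and DMSO libraries did not deviate together (correlations −0.295, 0.106 and −0.227). Deviations from a mean of 3 libraries cannot show whether same-numbered libraries were handled together. With the replicate number as a block, 8 factors were lower and 0 higher, *SPDEF* being lost (adjusted p = 0.059 in limma), 8935 genes were called, and 4 factors were lower and 0 higher relative to *FOXA1*. With 3 libraries a group, and about 2 to 29 reads per treated library for *SOX9* and *MEIS1*, the size of the change in those 2 genes is imprecise.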

Other observations

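The genes beside *HOXB13* were not called lower. *PRAC1*, a prostate transcript gene next to it in the HOXB cluster, averaged 192 CPM with CDKI-73 and 156 CPM with DMSO (log2 fold change 0.30, adjusted p = 0.13 in limma), and *PRAC2* averaged 20.5 and 16.1 CPM (0.32, adjusted p = 0.097). With trimmed-mean and upper-quartile scaling both passed the test as higher. Without CDKI-73 replicate 3 the log2 fold changes were 0.14 for *PRAC1* and 0.13 for *PRAC2*. *TTC6*, which overlaps *FOXA1* on the opposite strand, had 27.9, 28.0 and 27.8 CPM with CDKI-73, against 26.9, 29.3 and 29.99 CPM with DMSO, with overlapping groups. *MEIS1-AS3*, antisense to *MEIS1*, had 0.06 to 0.11 CPM with CDKI-73 and 0.00 to 0.02 CPM with DMSO, a few reads per library. The counting is not stated to use strand, so reads of overlapping genes and their partners cannot be told apart.

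The lineage factors differ in gene structure, and over all genes structure went with the change. Of the 11590 tested genes with 1 GENCODE entry, a called fall of 2-fold or more in limma was found in 52.4% of the 315 genes with 1 exon (as in *SOX4*), in 38.0% of those with 2 to 4 exons (*FOXA1*, *HOXB13*, *SOX9*), in 21.7% with 5 to 9 exons (*GATA2*, *SPDEF*, *ELF3*) and in 16.3% with 10 or more (*GRHL2*, *MEIS1*). Within the 9 this order was not kept: *MEIS1*, with 13 exons, left 16.1% of its DMSO level, while *HOXB13*, with 2, left 75.3%.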
